A study of Mus musculus with 74 samples.

Results

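The peaks described here were those deposited for Gm14436 and Gm6710, which are KRAB zinc finger proteins (KRAB-ZFPs). They were chosen by the protein name given with each peak, and they made up 643 of the 53011 peaks that could be assigned to a labelled KRAB-ZFP. Gm14436 had 212 peaks and Gm6710 had 431. The pair was singled out because loci called for both were already known, so the shared loci are given as a description.

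Both proteins were expressed in F9 EC cells, a mouse embryonal carcinoma line grown in serum on gelatine, and the cells were cross-linked with formaldehyde before chromatin immunoprecipitation and sequencing (ChIP-seq). Each carried a C-3XHA tag, was made from a codon-optimised sequence in a stably integrated pTRE-puromycin vector, and was precipitated with an HA antibody. The level of an overexpressed, tagged protein need not be that of the endogenous one. Enrichment was called against 1 other HA ChIP from F9 EC cells, labelled Gm14296_control, and no input library was named beside it. Most other F9 samples of the study kept a peak called against both an input and a control ChIP, a rule for which these samples were listed as an exception. The same control served 8 further F9 samples prepared with the same tag and antibody, EtOHi1, Gm14326, Gm14391, Gm14393, Gm14406, Gm14410, Gm14412 and Gm14418, and all 10 share its background. Each protein had 1 sample, so that no value has a replicate error and intervals on shares cover counting error only. The files hold no expression values against which the F9 label could be checked.

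KRAB-ZFPs bind DNA through an array of C2H2 zinc fingers, each of which contacts a few neighbouring bases, so the length and the contact residues of the array set which sequences can be bound. Repression runs through Trim28 (KAP1), which docks on the KRAB domain, and through Setdb1, which marks the chromatin nearby with H3K9 methylation. In the mouse many of these genes lie in young clusters that arose by duplication, and transposable elements are their best known targets. The genes for Gm14436 and Gm6710 lie in such a cluster on distal chromosome 2, at chr2:176131382-176141650 and chr2:175868351-175880380 of mm9, both on the plus strand.

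The annotated coding sequences differed strongly in length. The longest Gm14436 product had 318 residues and 6 C2H2 zinc fingers, whereas that of Gm6710 had 554 residues and 16 fingers, and the proteins were 79.6% identical over 299 aligned residues. The annotated Gm6710 product was 100% identical to that of Gm14391, with 0 differences between the coding sequences, although the gene for Gm14391 has its own position at chr2:175016566-175032418. Among the other 6 proteins of this control with an annotated product under the same name, identity to Gm6710 ranged from 81.2% for Gm14406 to 93.0% for Gm14393. EtOHi1 was not matched by name. The products are those of the reference annotation, and the cloned sequences were not analysed here.

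The 2 highest folds of Gm14436 lay in introns of Oas1 genes on chromosome 5, and 4 of its 10 highest folds lay in or near the Oas genes there. The Oas genes are named for oligoadenylate synthetases, which are interferon-induced enzymes. Such enzymes make the short adenylate chains by which RNase L is switched on during viral infection. Which of the Oas1 products have this activity was not examined here. Of the 212 Gm14436 peaks, 10 lay between 10 kb before and 10 kb after the Oas genes, and their summits spanned 208 kb. An 18-base word, GCTAACTCTCTCTTCAGC, occurred without a mismatch in 7 of these 10 windows of 200 bp around the summit, and with 1 mismatch in another 2. It was the most frequent word of that length over the Gm14436 windows, and its length was chosen after the windows had been seen. The 9 windows are shown because their summits sit on this word, which is in capitals within 20 bases of flank on each side, on the strand that carries it (mm9).
near Dtx1, chr5:121171793-121171850, plus strand: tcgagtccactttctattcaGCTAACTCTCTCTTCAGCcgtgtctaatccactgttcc
Oas1c, chr5:121254428-121254485, minus strand: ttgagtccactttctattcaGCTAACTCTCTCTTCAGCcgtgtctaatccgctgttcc
Oas1b, chr5:121270325-121270382, plus strand: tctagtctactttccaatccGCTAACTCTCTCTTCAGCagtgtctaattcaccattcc
Oas1f, chr5:121304567-121304624, plus strand: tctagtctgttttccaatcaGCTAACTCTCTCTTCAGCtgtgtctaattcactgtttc
Oas1h, chr5:121319139-121319196, plus strand: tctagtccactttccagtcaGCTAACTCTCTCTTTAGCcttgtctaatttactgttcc
Oas1g, chr5:121330179-121330236, minus strand: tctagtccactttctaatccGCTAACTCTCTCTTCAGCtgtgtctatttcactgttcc
Oas1a, chr5:121350134-121350191, minus strand: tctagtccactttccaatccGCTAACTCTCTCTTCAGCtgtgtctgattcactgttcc
Oas1d, chr5:121368158-121368215, plus strand: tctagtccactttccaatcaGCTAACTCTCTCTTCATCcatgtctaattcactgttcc
downstream of Oas1d, chr5:121379770-121379827, minus strand: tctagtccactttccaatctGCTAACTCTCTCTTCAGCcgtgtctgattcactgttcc

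In these 9 windows the centre of the word lay 7 to 22 bp from the summit, with a median of 13 bp. The 7 that fell inside an Oas1 gene all lay in an intron and read along the strand of the gene, and 6 of them, all but that of Oas1d, started 7210 to 8076 bp from the start of the transcript. The Oas1d copy started 3823 bp from it. Extended to 200 bases around the word, the 9 sequences were 70.7% to 93.0% identical to each other in the 36 pairs, with a median of 78.1%, so they are related copies rather than independent sites. The median genomic copy number of their 24-base words was 1 in all 10 peaks.

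An Oas1 copy of the word without a peak was found as well. In Oas1e the sequence carried A5G, counted from 1 at the 5′ end of the word, and Gm14436 had no peak at it in the table.
Oas1e, no peak, chr5:121239779-121239836, minus strand: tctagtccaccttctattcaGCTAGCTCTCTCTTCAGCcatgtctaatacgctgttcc
The copies in Oas1h and Oas1d also carried 1 difference each, C15T and G17T, and both had a peak. Over the whole of Oas2 and Oas3, which had no Gm14436 peak in the gene, the best match to the word had 5 mismatches. A missing peak is not evidence that binding was absent, since the depth of the libraries is unknown here.

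The levels at the Oas genes differed several-fold between neighbouring copies. The peak in Oas1f held 206 tags and was enriched 80.1-fold, the highest fold of all Gm14436 peaks, and that in Oas1b held 79 tags at 63.7-fold. Oas1c followed with 92 tags at 47.3-fold and Oas1a with 60 tags at 34.6-fold. These 4 copies are all exact matches. The peak in Oas1g had 69 tags at 32.8-fold. It was the peak of the region closest to any annotated transcript start, 604 bp upstream of an Oas1g transcript other than the 1 used above. The copies with 1 mismatch were the lowest, with 49 tags at 27.3-fold in Oas1h and 28 tags at 18.2-fold in Oas1d. Outside the genes, the peak 9873 bp from the start of Dtx1, which encodes a ubiquitin ligase that acts on Notch, had the most tags of any Gm14436 peak, 317 at 44.5-fold. The other intergenic peak, downstream of Oas1d, had 72 tags at 30.4-fold. The tenth peak of the region was a weak call in Oas1f, 70 tags at 10.1-fold, whose best match had 7 mismatches.

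**Figure D1:**
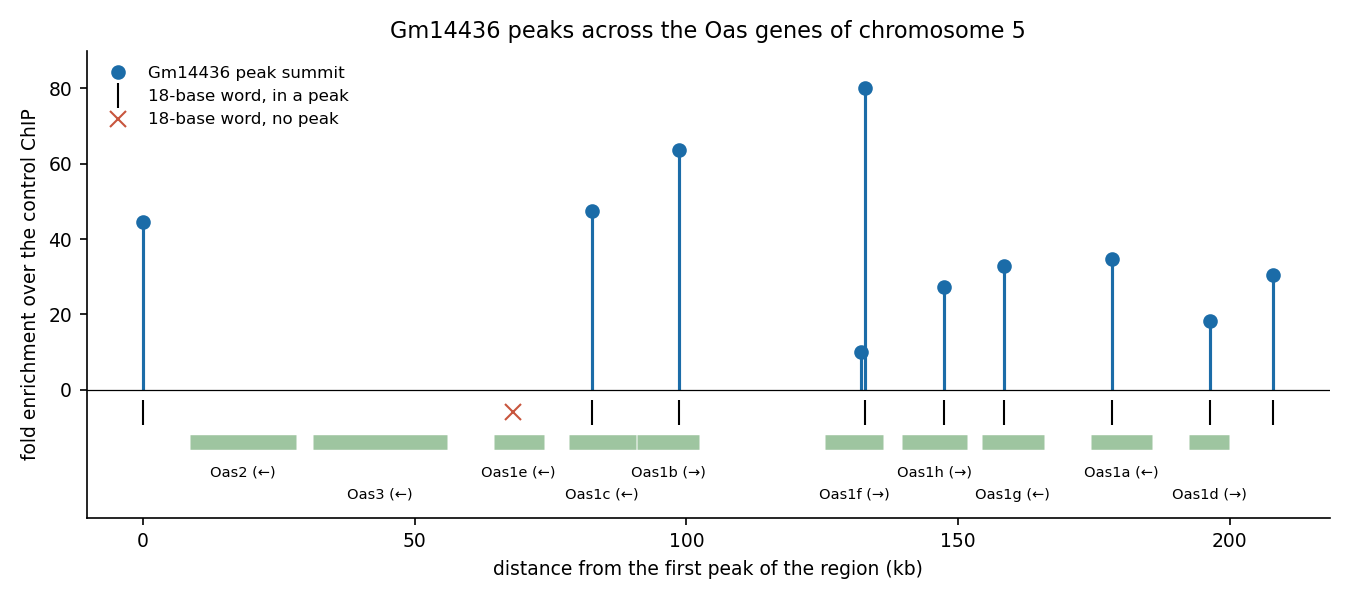
Fold enrichment over the control ChIP of the 10 Gm14436 peaks (y axis) by distance in kb from the first of them (x axis). Green bars are the Oas genes with their direction, black ticks copies of the 18-base word inside a peak and the cross the copy without one. The 80.1-fold peak is in Oas1f, the cross is in Oas1e, and no peak lies in Oas2 or Oas3.

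Together the 10 peaks held 1042 tags, 14.2% of all tags in Gm14436 peaks, although they were 4.72% of the peaks. Chromosome 5 as a whole carried 25 of the 212 Gm14436 peaks, or 11.8%. The other 15 were 7.43% of the peaks outside the Oas region, beside 6.33% of all 53011 peaks of the series. Gm6710 had 21 of 431 peaks on chromosome 5, or 4.87%. No peak of Gm6710 fell in the Oas region, which with 431 peaks allows a share of up to 0.696%. Among the other KRAB-ZFPs of the series, 8 of 52368 peaks did, 1 each of Gm14406 and Gm14412 among them. None of the 8 lay at a locus called for Gm14436. With a share this small in the series, the absence of Gm6710 peaks says nothing particular about that protein.

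The exact word occurred 7 times in the assembled chromosomes of mm9, and all 7 occurrences lay in Gm14436 peaks of the Oas region. The word was taken from these very windows, so this is a description of how rare it is. Allowing 1 mismatch there were 24 occurrences, of which 10 lay in Gm14436 peaks, and allowing 2 there were 197 with 13 in peaks. Outside the Oas region 187 occurrences had up to 2 mismatches, and 4 of them lay in Gm14436 peaks. None of the 197 lay in a Gm6710 peak.

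Outside the Oas region, looser matches were found at further Gm14436 peaks. Of the 202 windows elsewhere, 11 held a match with up to 4 mismatches, or 5.45% (exact binomial 95% interval 2.75% to 9.53%). The 404 windows taken 1 kb to either side of the same summits held none, which allows a share of up to 0.743%. In Gm6710 peaks 1 of 431 windows held such a match, or 0.232% (0.00587% to 1.29%), and in the other 8 samples together 5 of 9835, or 0.0508% (0.0165% to 0.119%). Over all other KRAB-ZFPs of the series the share was 85 of 52368, or 0.162% (0.130% to 0.201%). The mismatch limit was set after the values had been seen.

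The matches were most frequent where enrichment was high. Among the 15 peaks elsewhere with a fold over 25, a limit that falls in the gap between 26.5 and 24.4 in the ranked folds and was also chosen after they were seen, 4 held a match, or 26.7% (7.79% to 55.1%). Between 15- and 25-fold there were 4 of 68, or 5.88% (1.63% to 14.4%), and up to 15-fold 3 of 119, or 2.52% (0.523% to 7.19%). The intervals of the first and the last group only just miss each other, at 7.79% and 7.19%, and that of the middle group overlaps both. The fold and mismatch limits were set after the values were seen, so no difference between groups is read from the intervals. These intervals treat peaks of 1 library as independent. The centre of the match lay within 25 bp of the summit in 7 of the 11. Of the 4 matches over 25-fold, those in Dlgap2 and near Twist2 lay 9 and 5 bp from the summit. Those in Tcf4 and near Fam19a5 lay 65 and 63 bp from it.

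The following 6 windows of these 11 are shown to let the matches be compared with the Oas copies, in the same orientation and with the match in capitals (mm9). All names given here follow from the match and not from a rank of enrichment.
near Ttc17, chr2:94139288-94139345, minus strand: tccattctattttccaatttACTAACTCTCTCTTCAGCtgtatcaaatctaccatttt
near Gm17364, chr13:41386722-41386779, minus strand: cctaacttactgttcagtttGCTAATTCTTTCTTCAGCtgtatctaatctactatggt
Dlgap2, chr8:14536386-14536443, minus strand: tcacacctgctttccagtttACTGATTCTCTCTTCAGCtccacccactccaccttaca
near Fam19a5, chr15:86867645-86867702, minus strand: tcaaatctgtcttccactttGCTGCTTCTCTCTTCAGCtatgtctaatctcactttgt
near Twist2, chr1:93578204-93578261, plus strand: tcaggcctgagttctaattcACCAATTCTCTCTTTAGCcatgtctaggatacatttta
Tesc, chr5:118485807-118485864, plus strand: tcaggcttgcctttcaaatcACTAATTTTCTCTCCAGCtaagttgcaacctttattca

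Of the 10 matches outside chromosome 18, 9 carried C6T relative to the Oas word, the match near Ttc17 being the exception with G1A alone. Positions 7, 9, 11, 12 and 16 had the base of the word in all 10. The enrichment at these sites varied widely. Dlgap2, which encodes a scaffold protein of the postsynapse, had 86 tags at 52.8-fold. The intergenic peak 119800 bp from the start of Twist2, which encodes a basic helix-loop-helix factor, had 54 tags at 32.8-fold. The intergenic site 507167 bp from the start of Fam19a5 reached 30.9-fold with 63 tags. The peak in Tesc, 223 bp from a transcript start, had 36 tags at 12.04-fold. The remaining named site of high enrichment was an intron of Tcf4, with 93 tags at 60.1-fold and a match with 2 mismatches.

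**Figure D2:**
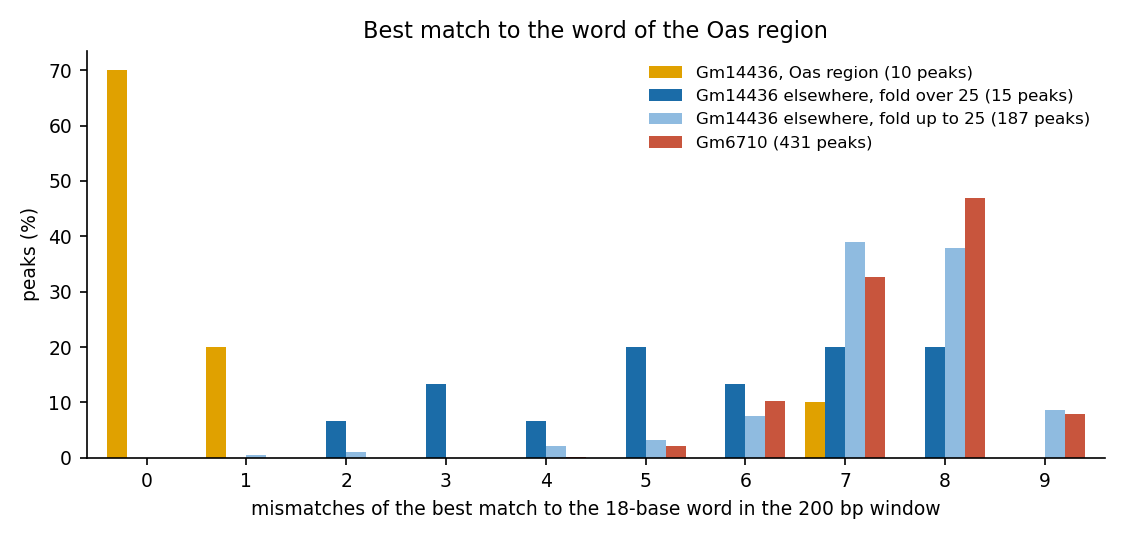
Share of peaks in percent (y axis) by the number of mismatches of the best match to the 18-base word in the 200 bp window (x axis), for Gm14436 peaks of the Oas region, for those elsewhere above and up to 25-fold, and for Gm6710. Windows of the Oas region sit at 0 and 1 with 1 at 7, while most windows of Gm6710 sit at 7 and 8.

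A search for words of 8 bases was made on the odd-numbered chromosomes, and the share of the leading words was then read on the others. For Gm14436, 4 of the 5 leading words were parts of the 18-base word. The Oas windows that gave this word lie on chromosome 5, an odd chromosome, so the recurrence is no separate support for it. In Gm14436 peaks with fewer than 10 genomic copies, the word agagagag was found in 16 of 115 windows of 100 bp on odd chromosomes, or 13.9%, against 2.61% of the flanks. On the other chromosomes it was present in 3 of 84 windows, or 3.57%, against 2.98% of the flanks, and without the Oas region the share on odd chromosomes was 6.67%. The word aagagaga was present in 15 of 115 odd windows against 3.04% of flanks, and on the other chromosomes in 6 of 84 windows, or 7.14%, against 0 of 168 flanks, which allows a share of up to 1.79%. Without the Oas region its share on odd chromosomes was 5.71%. The word aactctct was found in 10.4% of odd windows and 0 of 230 flanks, which allows up to 1.30%, but in 2.38% of windows on the other chromosomes and in 2.86% of odd windows without the Oas region.

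For Gm6710 no leading word reached 4% of the windows. The first, agagggaa, was present in 8 of 207 odd windows, or 3.86%, against 0.483% of flanks, and in 0 of 184 on the other chromosomes, which allows a share of up to 1.63%. The next, ctcccaaa, was present in 3.38% of odd windows against 0.242% of flanks, and in 3 of 184 windows on the others, or 1.63%, against 0.272% of flanks. None of the 5 leading Gm6710 words was part of the Oas word.

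Outside the Oas region, the Gm14436 peak with the highest score and the most tags lay 11216 bp from the start of Tnfrsf13b, which encodes the B cell receptor TACI, with 279 tags, a score of 2084 and 31.9-fold enrichment. It is named after its values were seen, as it was not among the 10 highest folds, and its best match to the Oas word had 8 mismatches. Besides Tcf4 and Dlgap2, a peak 3664 bp from the start of Sumo3, a ubiquitin-like modifier, had 101 tags at 59.4-fold. An intron of Cep70, which encodes a centrosomal protein, had 98 tags at 46.2-fold. Introns of Rell1 and of the kinase gene Cit were both at 45.5-fold, with 104 and 92 tags. The best match to the Oas word in the windows of Sumo3, Cep70, Rell1 and Cit had 6, 7, 8 and 5 mismatches. All 23 Gm14436 peaks with a fold over 25 were called in Gm14436 alone among the 67 KRAB-ZFPs with peaks. Of the 189 with a lower fold, 71 were also called in another KRAB-ZFP. That limit, set after the folds were seen, lies just above the highest peak called elsewhere, at 24.35-fold, so the count of 23 depends on it. Over all 212 Gm14436 loci, 141 were called in no other KRAB-ZFP. For Gm6710, 39 of 92 peaks over 25-fold and 79 of 339 up to 25-fold were also called in another.

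**Figure D3:**
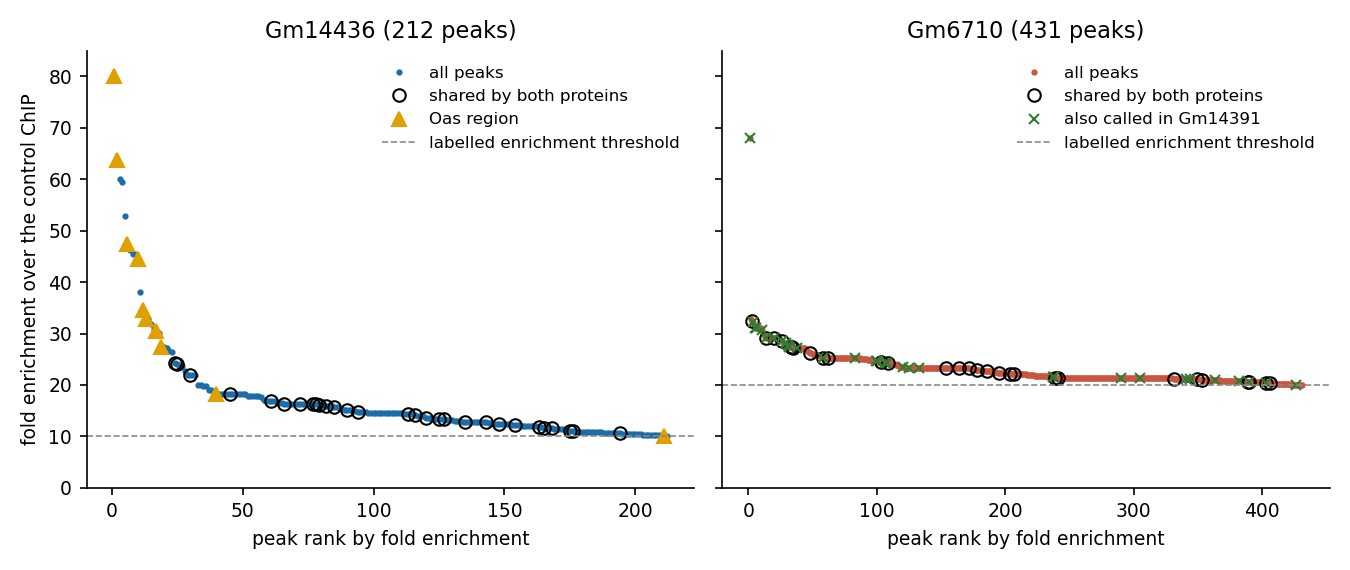
Fold enrichment over the control ChIP (y axis) against the rank of the peak (x axis) for Gm14436 and Gm6710. Circles mark the shared loci, triangles the Oas region, crosses peaks of Gm6710 also called in Gm14391 and dashed lines the labelled enrichment thresholds of 10 and 20. The circles begin at rank 24 for Gm14436 and at rank 3 for Gm6710.

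Gm6710 had a narrower range of enrichment with 1 peak far above the rest. Its folds lay between 20.0 and 68.0, the median being 22.1, and its peaks held 12 to 116 tags, the median being 21. For Gm14436 the folds lay between 10.0 and 80.1 around a median of 14.6, and the tags between 16 and 317 around a median of 26. The labels gave an enrichment threshold of 20 for Gm6710 and 10 for Gm14436, both at a p-value below 1e-10, so peak numbers and medians of the proteins cannot be set against each other as they stand. At the common threshold of 20, all 431 Gm6710 peaks and 33 Gm14436 peaks were left. The deposited false discovery rate was 0% for every Gm6710 peak and had a median of 2.61% and a maximum of 4.62% for Gm14436.

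The strongest Gm6710 peak lay in an intron of the non-coding gene Gm14243, 88052 bp from the nearest coding transcript start, that of Chd6, a chromatin remodeller gene. It held 116 tags, had a score (10 times the negative log10 of the p-value) of 1245 and was enriched 68.0-fold. The next fold of Gm6710 was 32.8 and the next score 396. That second score belonged to a peak in a coding exon of Enah, which encodes a regulator of actin assembly, with 62 tags at 32.3-fold. Both windows are shown whole because they lead the Gm6710 scores, with the 20 bases around the summit in capitals (mm9).
Gm14243, chr2:161022763-161022962, plus strand: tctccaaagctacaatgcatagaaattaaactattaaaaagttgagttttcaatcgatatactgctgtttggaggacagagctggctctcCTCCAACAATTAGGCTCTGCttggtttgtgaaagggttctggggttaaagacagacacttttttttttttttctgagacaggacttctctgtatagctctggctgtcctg
Enah, chr1:183852254-183852453, plus strand: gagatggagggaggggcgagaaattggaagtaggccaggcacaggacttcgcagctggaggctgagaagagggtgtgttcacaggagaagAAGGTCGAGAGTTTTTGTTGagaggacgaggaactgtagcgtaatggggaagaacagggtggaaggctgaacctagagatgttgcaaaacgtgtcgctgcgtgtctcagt

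Both of these loci were also called in Gm14391, the protein with the identical reference product. In Gm14391 the Gm14243 locus had 101 tags at 50.1-fold with a score of 699, the highest score of that sample, and its summit lay 4 bp from that of Gm6710. The Enah locus had 75 tags at 23.9-fold and the fourth highest score, with the summits 20 bp apart. Next among the shared peaks was an intergenic peak 426393 bp from the nearest coding transcript start, that of Cdh26. It had 38 tags in Gm6710 and 36 in Gm14391, at 31.1- and 20.6-fold. The peak in Wwtr1, a Hippo pathway coactivator gene, had 32 and 27 tags at 31.1- and 20.6-fold. None of these 4 loci was called in Gm14436. By Gm6710 score, however, the locus near Hsf2 ranked between those of Cdh26 and Wwtr1, and it was called in Gm14436. It had 36 tags in Gm6710 and 15 in Gm14391, at 29.2- and 11.8-fold. The Cdh26 window was made of words with a median of 11 genomic copies, and the other 3 were single-copy.

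In all, 32 of the 431 Gm6710 loci were called in Gm14391, or 7.42%, which was 8.38% of the 382 loci of Gm14391. This number does not set Gm14391 apart, since Gm6710 shared 40 loci with Gm14326, 9.28% of its own, and 14 with Gm14393, which were 11.6% of the 121 loci of that sample. Over all loci of the 10 samples, 1.78% were called in at least 2. Of the 25 highest Gm6710 scores, 6 lay at a Gm14391 locus and 3 at a Gm14436 locus. Gm14391 was called at a p-value below 1e-05 and its median false discovery rate was 100%, so that most of its peaks are not distinguished from the swapped control. Of its 13 peaks with a rate of at most 5%, 2 were called in Gm6710, the Gm14243 and Enah loci, and 0 in Gm14436. The comparison was made after the identical products had been seen, and the samples share the control ChIP.

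The remaining leading Gm6710 peaks were close to each other in enrichment. At an intergenic site 107919 bp from the start of Fam107b, 30 tags gave 32.8-fold. In the annotated span of Fgfr2, a fibroblast growth factor receptor gene, 42 tags gave 32.5-fold. The nearest coding transcript start was that of Oat, 78898 bp away. Arhgef40, Mbtps2 and the olfactory receptor gene Olfr1306 each had a peak at 31.1-fold, with 23, 23 and 20 tags, and a peak near Mlxipl, which encodes the glucose-responsive factor ChREBP, had 31 tags at 31.0-fold. The window near Olfr1306 had a median of 33 genomic copies. With so few tags a difference of this size between single peaks has no replicate check.

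Both proteins were called at 29 loci, where a locus is a set of 200 bp windows overlapping by at least 25%. These were 13.7% of the 212 Gm14436 loci (exact binomial 95% interval 9.36% to 19.1%) and 6.73% of the 431 Gm6710 loci (4.55% to 9.52%). Of all 10258 loci in the 10 samples with this control, 183 were called in at least 2 of them, or 1.78%, a share dominated by the many loci of Gm14406 and Gm14412. Since the pair was chosen with its shared loci known and uses 1 control, nothing further is read from this overlap.

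The shared loci were weak peaks of Gm14436. They held 17 to 38 Gm14436 tags, with a median of 23, at 10.6- to 24.4-fold, and none was among the 23 peaks with a fold over 25. In Gm6710 the same loci held 17 to 42 tags, with a median of 27, at 20.4- to 32.5-fold. Their best rank by fold was 24 of 212 in Gm14436 and 3 of 431 in Gm6710. The fold was higher in Gm6710 at 28 of 29 loci, which the labelled thresholds of 10 and 20 favour. The tags were higher in Gm6710 at 19, equal at 2 and lower at 8. Summits lay 2 to 146 bp apart with a median of 19 bp, and at 26 loci they were within 50 bp. All 29 windows had a median copy number of 1, 17 were intergenic and 12 intronic, and they lay on 16 chromosomes.

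Only 3 shared loci remained when both proteins were held to an enrichment over 20. The first was in an intron of Mastl, the Greatwall kinase gene of mitotic entry, with 28 tags in each sample, at 24.4-fold in Gm14436 and 25.3-fold in Gm6710. The next was in Pola1, a DNA polymerase subunit gene on the X chromosome, with 24 and 29 tags at 24.01- and 27.46-fold. The last was in Veph1, with 18 and 23 tags at 21.9- and 21.4-fold, the 1 locus where Gm14436 had the higher fold. Mastl was also called in Gm14391 and Pola1 in Gm14393, while Veph1 was called in no other KRAB-ZFP. The 120 bases around the Gm14436 summits of these loci are shown as the strongest of the shared sites, with the 20 bases around the summit in capitals (mm9). The best match to the Oas word in these 3 windows had 7 or 8 mismatches.
Mastl, chr2:23005045-23005164, plus strand: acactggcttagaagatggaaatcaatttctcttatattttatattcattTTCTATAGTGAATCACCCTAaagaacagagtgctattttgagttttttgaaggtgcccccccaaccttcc
Pola1, chrX:90868271-90868390, plus strand: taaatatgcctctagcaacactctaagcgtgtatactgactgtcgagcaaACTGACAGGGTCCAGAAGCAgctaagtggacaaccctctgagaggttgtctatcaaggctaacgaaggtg
Veph1, chr3:65952879-65952998, plus strand: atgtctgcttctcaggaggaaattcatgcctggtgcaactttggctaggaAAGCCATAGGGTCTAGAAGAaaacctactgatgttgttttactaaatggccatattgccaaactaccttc

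The loci that came next had lower Gm14436 folds. Near 1700017N19Rik the values were 18.2-fold in Gm14436 and 23.3-fold in Gm6710, and in Gm1661 16.9- and 24.4-fold. The locus near Arrdc3 had 16.4- and 27.2-fold and that in Gm10125 16.4- and 25.3-fold. Near Hsf2, a heat shock factor gene, 21 and 36 tags gave 16.3- and 29.2-fold. The locus near Olfr686 had 16.3- and 21.0-fold, with summits 97 bp apart. In Hira, a histone H3.3 chaperone gene, 31 and 27 tags gave 16.2- and 28.5-fold, with summits 123 bp apart. The widest gap was at the Fgfr2 locus, where 30 and 42 tags gave 11.9- and 32.5-fold.

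Of the 29 loci, 16 were also called in at least 1 other KRAB-ZFP of the series. Gm14326 accounted for 8 of them, Gm14391 for 6, Gm13251, which had another control, for 5, Gm14418 for 2 and Gm14393 for 1. The loci near Pou2af1 and Htatip2 were called in 5 KRAB-ZFPs each. Gm14326, Gm14391, Gm14393 and Gm14418 were called at the looser p-value of 1e-05 and each had a median false discovery rate of 100%. Without the loci called in these 4 samples, 15 of the 29 were left. What part weak, recurrent enrichment in these samples has in the shared loci was not tested.

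**Figure D4:**
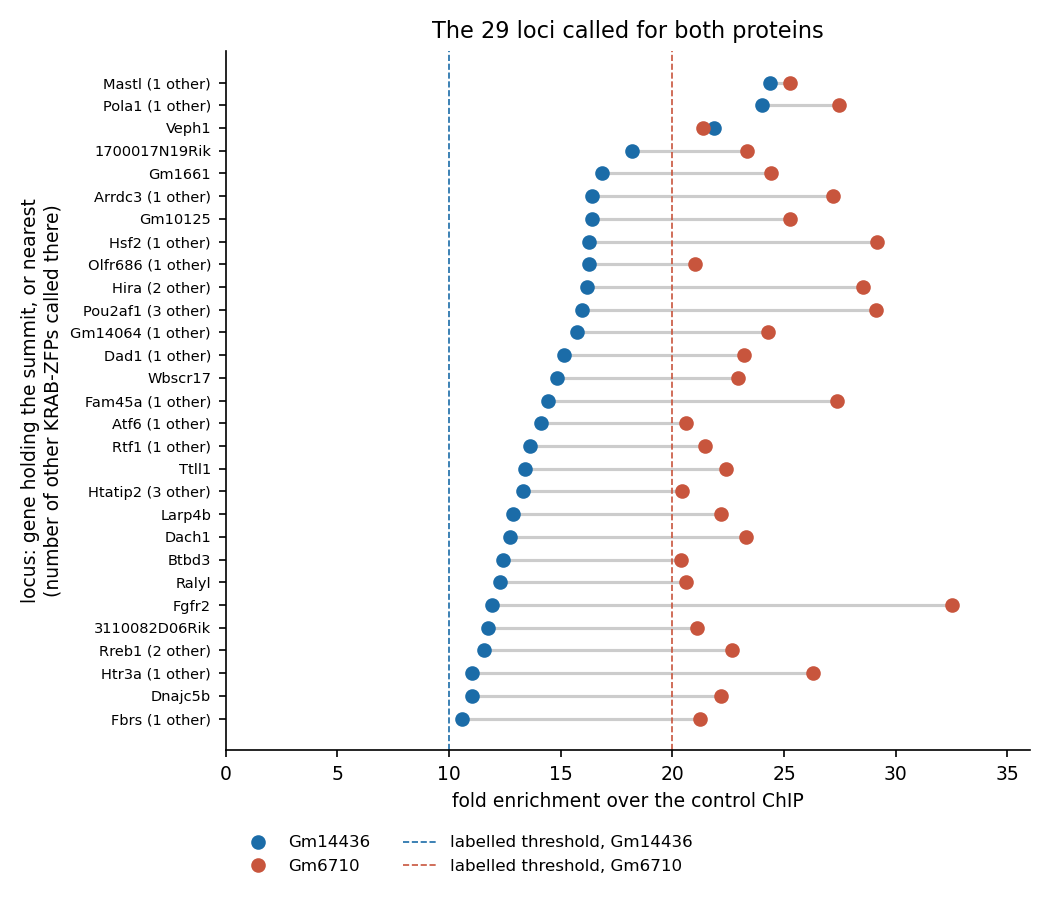
Fold enrichment over the control ChIP (x axis) at the 29 loci called for both proteins (y axis), with Gm14436 in blue and Gm6710 in red and dashed lines at their labelled thresholds of 10 and 20. Numbers in brackets count other KRAB-ZFPs called at the locus. Gm14436 exceeds 20-fold at 3 loci.

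Over all their peaks the proteins overlapped the same samples of this control, with shares given for each list. Gm14436 shared 23 loci with Gm14326, 10.8% of its own and 4.43% of those of Gm14326, and 20 with Gm14391, 9.43% and 5.24%. Gm6710 shared 40 loci with Gm14326, 9.28% and 7.71%. Both proteins shared 1 locus with Gm14406 and 0 with EtOHi1, Gm14410 and Gm14412. At least 1 of the other 9 samples was called at 61 Gm14436 loci, or 28.8% (22.8% to 35.4%), and at 98 Gm6710 loci, or 22.7% (18.9% to 27.0%). The whole series left 141 Gm14436 loci and 313 Gm6710 loci called in no other KRAB-ZFP. None of the Gm14436 loci shared with Gm14326, Gm14391, Gm14393, Gm14406 or Gm14418 exceeded 24.4-fold.

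The kind of region was compared over samples, with the mean of the pair set against that of the other 8. Few windows of the pair were multi-copy, meaning that their 24-base words had a median of at least 10 exact copies in mm9. The shares were 6.13% of Gm14436 windows (3.31% to 10.3%) and 9.28% of Gm6710 windows (6.71% to 12.4%). Repeats were not annotated here. Diverged copies, such as those of the Oas region, can have a median of 1 and are then not counted as multi-copy. Low shares were not particular to the pair. EtOHi1, Gm14393, Gm14418, Gm14326 and Gm14391 had 2.99%, 4.96%, 9.85%, 10.0% and 11.5%. Gm14412, Gm14410 and Gm14406 stood far higher, at 65.3%, 80.3% and 91.6%, and they weigh heavily in the mean of the other 8. The mean difference of -26.9 percentage points did not pass an exact two-sided permutation test over samples (p = 0.489, 0.733 after Benjamini-Hochberg adjustment over 3 measures). The smallest p that 2 against 8 samples allow in this exact test is 0.0444. Random placement of reads with several positions, as the study did it, spreads the tags of a repeat over its copies.

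Peaks near transcript starts were as infrequent. Within 1 kb of a start lay 14 Gm14436 peaks, or 6.60% (3.66% to 10.8%), and 17 Gm6710 peaks, or 3.94% (2.31% to 6.24%). The other 8 samples ranged from 0.528% to 19.4%, and the mean difference was -1.99 percentage points (exact permutation test, p = 0.800, adjusted p = 0.800). The mean GC content of the windows was 42.5% in Gm14436 and 41.2% in Gm6710, against 39.6% to 60.8% in the others, a mean difference of -4.50 percentage points (exact permutation test, p = 0.444, adjusted p = 0.733). By annotation, 57.1% of Gm14436 peaks were intergenic and 40.1% intronic, and for Gm6710 the shares were 56.4% and 42.7%. Each protein had 2 peaks in coding exons.

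**Figure D5:**
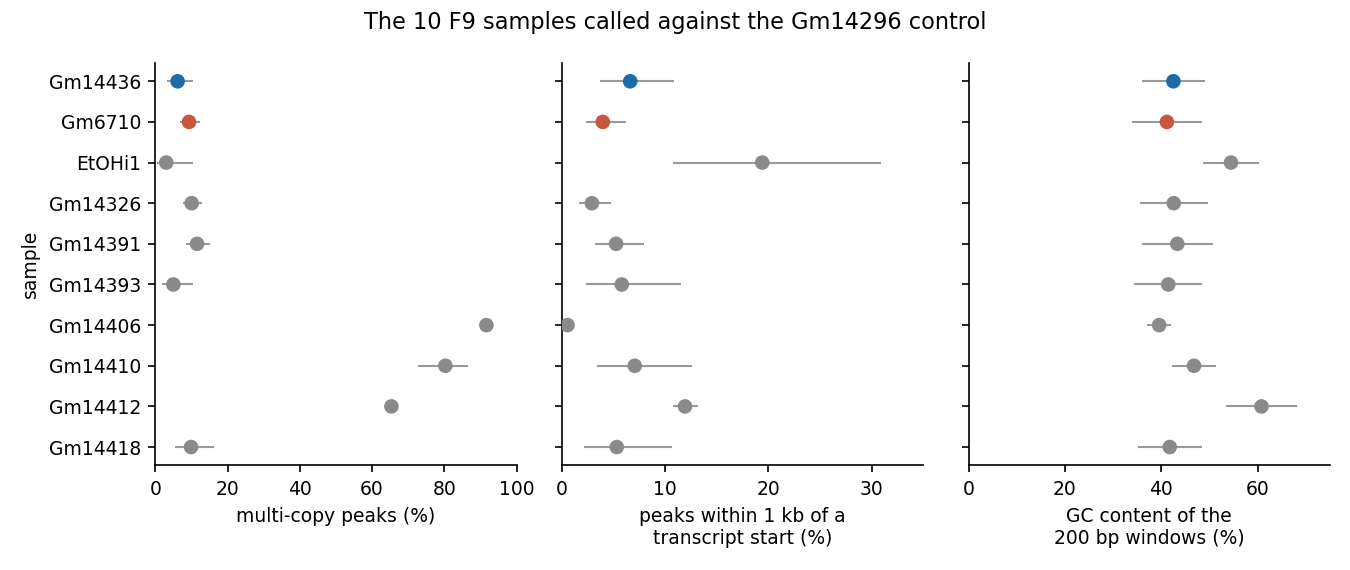
Share of multi-copy peaks, share of peaks within 1 kb of a transcript start, both in percent with exact binomial 95% intervals, and mean GC content in percent with the SD over windows (x axes), for the 10 F9 samples with this control (y axis). The pair lies at 6.13% and 9.28% multi-copy, below 3 samples that exceed 65% and among the remaining samples at 2.99% to 11.5%.

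At transcript starts the Gm14436 peaks were led by that in Rell1, 15 bp from the start of the annotated gene Gm15819, at 45.5-fold, and by that of Oas1g. The others were below 24-fold. Glrb, a glycine receptor subunit gene, had 24 tags at 23.7-fold and Setdb2, a SET domain gene, 19 tags at 18.2-fold. Hspa8, the constitutive heat shock cognate gene, had 30 tags at 17.1-fold 4 bp from its start, and Gpx5 18 tags at 16.4-fold. Rtf1, a transcription elongation factor gene, and the site near Dad1, at the Traj1 segment of the T cell receptor, were shared loci, at 13.6- and 15.1-fold in Gm14436 and 21.4- and 23.2-fold in Gm6710. Echs1 had 49 tags at 13.6-fold in a coding exon.

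The Gm6710 peaks at transcript starts were led by Brwd1, a bromodomain gene, with 31 tags at 29.9-fold, and Rdm1, with 32 tags at 28.2-fold. Slain1 followed at 27.2-fold and the pheromone receptor gene Vmn2r98 at 25.1-fold. Rab38, which encodes a small GTPase of melanosome transport, had 30 tags at 23.8-fold. Peaks in 9430070O13Rik, Smg6 and 2810055G20Rik were each at 23.3-fold, and Pate2 was at 22.7-fold. The start near the 9430070O13Rik peak was that of Gm2000, at 56 bp. The start near the Smg6 peak was that of Gm12335, at 534 bp, and the coding start of Smg6 was 65139 bp away. Of the 10 highest Gm6710 folds near a start, that near Dad1 was also called in Gm14436.

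Like most samples with this control, neither protein had a peak in its own gene cluster. Between chr2:174887050 and chr2:177813181, which holds the KRAB-ZFP genes of the cluster, 0 of 22 Gm14436 peaks and 0 of 42 Gm6710 peaks of chromosome 2 were found. The same held for 5 of the other 8 samples, EtOHi1, Gm14391, Gm14393, Gm14410 and Gm14418. Of their chromosome 2 peaks, Gm14326 had 1 of 39 there, Gm14412 1 of 197 and Gm14406 24 of 374. The cluster spans 2.93 Mb of the 181748087 bp of chromosome 2. With so few peaks on the chromosome, their absence from the cluster says nothing particular about it. No peak of either lay within 10 kb of a gene of the silencing machinery, such as Trim28 and Setdb1, where 15 genes were listed and the 10 samples together had 5 such peaks among 10478, or 0.0477%. Of the pluripotency factors, 15 of 16 were in the annotation, and neither protein had a peak at any of them, beside 2 in the 10 samples, or 0.0191%. With 0 of 212 and 0 of 431 peaks these lists leave shares of up to 1.42% and 0.696%, well above those over the 10 samples, so the absence of peaks says nothing particular about these genes.

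Zinc finger and chemoreceptor genes were near a few peaks. Within 10 kb of a gene named Zfp, Zkscan or Zscan there were 2 Gm14436 peaks, or 0.943%, at Zfp408 and Zfp143, both at 10.4-fold, and 5 Gm6710 peaks, or 1.16%, at Zfp219, Zfp419, Zfp51, Zfp536 and Zfp148, at 20.0- to 31.1-fold. The share over all peaks of the 10 samples was 0.573%. Near olfactory and vomeronasal receptor genes, named Olfr or Vmn, lay 1 Gm14436 peak, or 0.472%, at Vmn2r25 with 34 tags, and 8 Gm6710 peaks, or 1.86%, against 1.63% over the 10 samples. The peak near Zfp419 also lay near Vmn2r38.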

How the data were processed

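Peaks of Gm14436 and Gm6710 and of the 8 other F9 samples with the same control ChIP were taken from the deposited peak table, in which 53011 of 53255 peaks matched a label. Per the labels and the methods, the authors mapped reads to mm9 with Bowtie2, placed reads with several equal positions at random, and called peaks per sample with MACS 1.4.2, loosening settings where few were found. The authors deposited for each peak the raw tag count, a score (10 times the negative log10 of the p-value), the fold enrichment as a ratio, and the false discovery rate as a percent. Library depth is unknown here.

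Windows of 200 bp centred on the summits were joined into loci where they overlapped by at least 25% in any KRAB-ZFP. Genes were those of gencode vM1 on NCBIM37, the assembly of mm9, and coordinates are counted from 1. A peak was named for the gene that holds its summit, or else for the nearest coding transcript start. No limit was set on the distance to that start, which was 507167 bp for Fam19a5. Proteins were translated from the longest annotated coding sequence and aligned globally (Biopython 1.88). Peaks named were the 10 highest folds of each protein, the first 10 shared loci by the smaller fold, up to 10 peaks of each within 1 kb of a transcript start, and listed genes at a peak. Names outside this rule, such as the Oas region, Gm14391 and the word matches, were added after their values were seen. Members and lists were chosen with earlier results of these data known.

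Shares carry exact binomial (Clopper-Pearson) 95% intervals, and a share of 0 the limit of 3 counts. The pair was compared with the other 8 samples by an exact two-sided permutation test over samples. The word search was tested on simulated sequences. Alternatives changed the overlap, thresholds, copy number, distances and window width, or left out a sample. Sequences from chromosome 18 are not printed, and some of the word matches are not reported here.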

Additional observations from a re-analysis of the deposited data

How the results depend on the processing

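The 3 comparisons of the pair with the other 8 samples were not past the threshold as reported, nor under any of the alternatives run. Over them the exact permutation p ranged from 0.178 to 0.667 for the multi-copy share, from 0.381 to 1 for peaks near transcript starts and from 0.0889 to 0.889 for GC content. Leaving out each sample in turn moved the differences between -31.4 and -18.7, between -3.32 and -0.254, and between -5.47 and -2.44 percentage points, and leaving out Gm14436 or Gm6710 left 1 sample in the pair. Alternatives that left out a sample, and those at stricter thresholds, kept fewer than 10 samples. Their smallest possible p is above the 0.0444 of 2 against 8, so they had little or no room to pass. The difference in peaks near transcript starts turned to 4.44 percentage points when the limit was 5 kb. With both proteins at an enrichment over 20, 33 Gm14436 peaks and 3 shared loci were left, since 179 of its peaks had a lower fold. Without loci called in the 4 samples with a median false discovery rate of 100%, an alternative added after seeing the data, 15 shared loci were left. The other 54 of 58 alternatives changed neither the direction nor the call, or moved a count by less than 1.5 times. No paired analysis was possible because each protein had 1 sample. Unknown depth limits what a missing peak means, and fold, score and tags come from 1 library against 1 control ChIP each.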
